A study of Homo sapiens with 9 samples.

Results

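The genes described here are 67 ligands and receptors of axon guidance among 18417 named genes measured on 9 arrays. They were taken by symbol (EPHA, EPHB, EFNA, EFNB, SEMA3 to SEMA7, PLXNA to PLXND, NRP1, NRP2, ROBO, SLIT1 to SLIT3, numbered NTN genes, UNC5A to UNC5D and DCC). Only transcript clusters with 1 symbol were used, and for the 3 genes with several clusters the brightest stood for the gene. The series profiled NCCIT, an established human embryonal carcinoma line that resembles pluripotent cells, on single-channel whole-transcript arrays. There were 4 kinds of embryoid bodies, floating cell aggregates that begin to differentiate: with 50 mM ethanol and FA together, with 50 mM ethanol, with FA, and untreated. Each kind was sampled at day 7 and at day 21, with 1 array each, and 1 array came from undifferentiated cells. FA is an additive, and no label spells it out or states its dose. All aggregates formed in non-adherent bacterial dishes with the medium changed daily, and the treatment protocol names 7 days although the titles also give day 21. No condition was replicated, and nothing in the labels said whether arrays came from separate cultures, so every p-value reflects no more than array-to-array spread, possibly of technical origin.

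Axon guidance genes code for cues and for the receptors that read them at the tip of a growing nerve fibre. Ephrins sit on cell surfaces (class A on a lipid anchor, class B as transmembrane proteins) and signal through Eph receptor tyrosine kinases, mostly to repel. Semaphorins act through plexins, and the secreted class 3 members mostly also need a neuropilin. Slit proteins repel through Robo receptors, while netrins attract through DCC and repel through UNC5 receptors. The same genes guide blood vessels, neural crest cells and cell sorting in the early embryo, so their expression is not confined to neurons.

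Levels are log2 values on the authors' normalized scale, and a log2 difference of 1 is 2-fold. The effect of day is the mean of 4 differences between matched arrays at day 21 and day 7, and the ethanol and FA effects are built the same way. A gene is said to rise or fall where limma's Benjamini-Hochberg adjusted p over all 18417 genes lay below 0.05, and errors are SEs of that fit. Of the 67 genes, 17 never exceeded 7.71, the median of all values on the arrays, and are called dim. The 14 pluripotency markers were all above that median on the undifferentiated array, and their mean level was 11.52 there, 11.29 to 11.33 at day 7 and 9.91 to 10.23 at day 21. The mean correlation of an array with others of its day was 0.992 to 0.995 for day 7, lowest for ethanol without FA, and 0.996 for day 21.

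The main change among axon guidance genes lay between day 7 and day 21, when SEMA3C, PLXNA2, UNC5C, ROBO2 and SEMA6D rose more than 4-fold. Of the 67 genes 34 changed, or 50.7%, against 36.3% of all genes. Among them 20 rose and 14 fell, where 18.7% of all genes rose and 17.6% fell. Among those at least 2-fold apart, 10 rose and 1 fell, which is 14.9% and 1.49% of the 67, where 2.42% and 1.1% of all genes did so. At least 4-fold apart were 5 that rose and 0 that fell, against 0.679% and 0.152% of all genes. The median log2 difference was -0.03 for the 67 genes and -0.05 for all genes, so the typical member did not move with the largest ones. Of 34 ligand genes 9 rose and 9 fell, and of 33 receptor genes 11 rose and 5 fell.

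**Figure D1:**
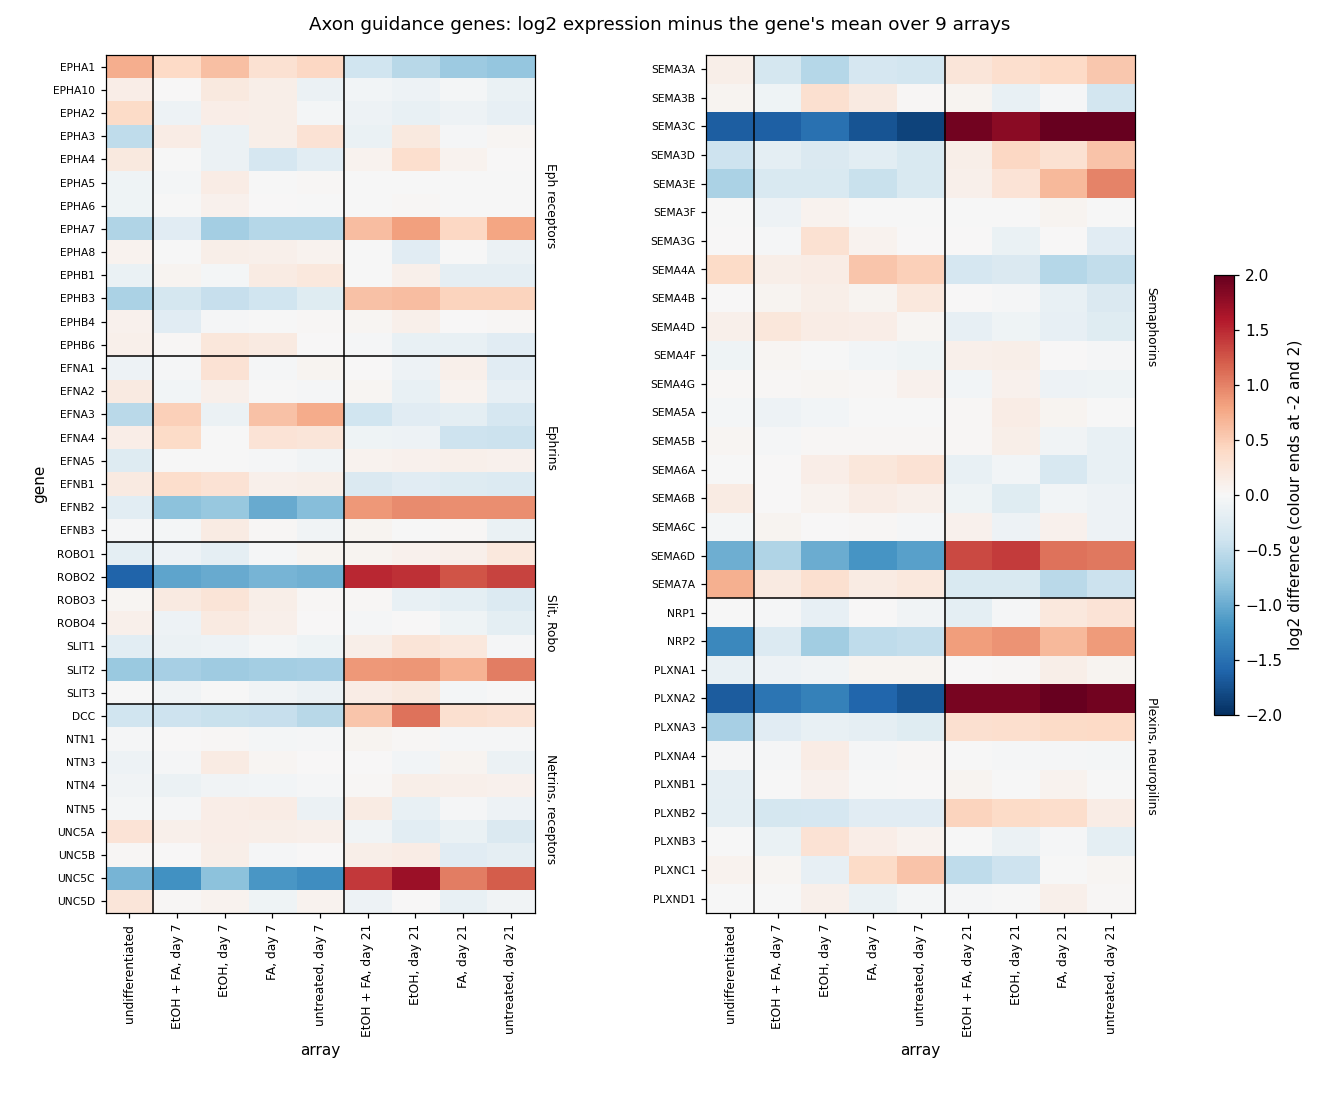
Each cell is the log2 level of a gene (rows, grouped by family) on an array (columns) minus the mean of that gene over 9 arrays, with colours ending at -2 and 2. SEMA3C, PLXNA2, ROBO2, UNC5C and SEMA6D are low on the undifferentiated and all day 7 arrays and high on all day 21 arrays, whereas most rows are pale.

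SEMA3C, a secreted class 3 semaphorin that binds neuropilins, had a log2 level of 6.26 in undifferentiated cells. At day 7 it stood at 6.28 with ethanol and FA, 6.41 with ethanol, 6.19 with FA and 6.06 untreated. At day 21 it stood at 9.84 with ethanol and FA, 9.71 with ethanol, 10.15 with FA and 10.28 untreated. All 4 day 21 arrays lay more than 3 log2 units above every earlier array. The log2 difference between day 21 and day 7 was 3.76 ± 0.13 (13.5-fold, 4 of 4 pairs, adjusted p = 4.96e-07 in limma).

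PLXNA2 codes for plexin A2, a semaphorin receptor, and had a log2 level of 7.32 in undifferentiated cells. Its day 7 levels were 7.51 with ethanol and FA, 7.63 with ethanol, 7.39 with FA and 7.27 untreated. Its day 21 levels were 10.88 with ethanol and FA, 10.88 with ethanol, 11.00 with FA and 10.90 untreated. The day 21 arrays spanned 0.12 and lay far above the rest. The log2 difference between the days was 3.47 ± 0.08 (11.0-fold, adjusted p = 6.47e-08 in limma).

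SEMA6D, a transmembrane semaphorin, was the third gene of the semaphorin system in this group, at a log2 level of 7.39 in undifferentiated cells. At day 7 it had 7.76 with ethanol and FA, 7.37 with ethanol, 7.18 with FA and 7.28 untreated. At day 21 it had 9.68 with ethanol and FA, 9.76 with ethanol, 9.46 with FA and 9.42 untreated. Day 21 and day 7 arrays did not overlap, and the log2 difference was 2.18 ± 0.08 (4.54-fold, adjusted p = 7.49e-07 in limma).

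ROBO2, a Slit receptor, had a log2 level of 6.76 in undifferentiated cells. Day 7 arrays gave 7.30 with ethanol and FA, 7.34 with ethanol, 7.43 with FA and 7.40 untreated. Day 21 arrays gave 9.86 with ethanol and FA, 9.81 with ethanol, 9.61 with FA and 9.71 untreated. Its level was thus higher at each stage, with a log2 difference of 2.38 ± 0.07 between day 21 and day 7 (5.21-fold, adjusted p = 1.92e-07 in limma).

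UNC5C, a netrin receptor that mediates repulsion, had a log2 level of 6.23 in undifferentiated cells. At day 7 the levels were 5.95 with ethanol and FA, 6.34 with ethanol, 6.00 with FA and 5.91 untreated. At day 21 they were 8.58 with ethanol and FA, 8.88 with ethanol, 8.19 with FA and 8.37 untreated. The 2 days were at least 1.85 log2 units apart on every pair of arrays, and the effect of day was 2.46 ± 0.09 (5.48-fold, adjusted p = 6.07e-07 in limma).

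**Figure D2:**
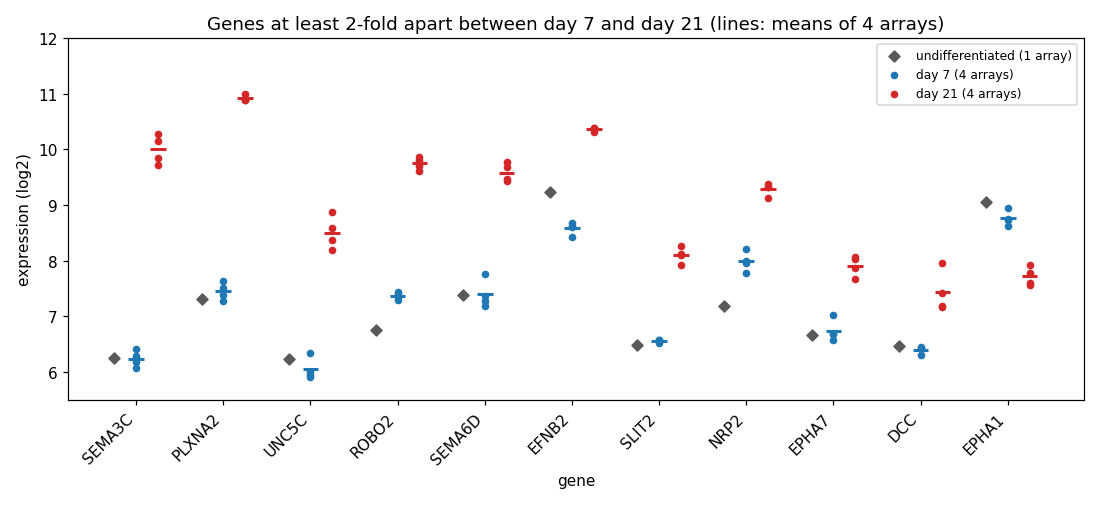
Log2 levels (vertical axis) of the 11 genes at least 2-fold apart between the days are plotted per array, with diamonds for the undifferentiated array and lines at the mean of 4 arrays of a day. In each gene the 4 day 21 points lie clear of the 4 day 7 points, above them in 10 genes and below them in EPHA1.

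Sequence upstream of the genes that rose most is shown because these genes moved together, with 2 motifs searched on both strands. The motifs were the nuclear receptor core site AGGTCA, which retinoic acid receptors among others recognise, and the site TGACAG, recognised by MEIS homeobox factors, and neither contains the other. RefSeq (GRCh38.p14) gave promoter windows, from 250 bases before to 50 after a start, for 57 of the 67 genes. The 5 genes with a 4-fold rise had 9 windows, of which 0 held AGGTCA and 3 held TGACAG or its reverse complement. Among all 35116 windows 13.8% held AGGTCA and 15.8% held TGACAG, while among the 88 windows of axon guidance genes the shares were 10.2% and 12.5%. Both motifs were thus no more frequent in the windows of axon guidance genes than in promoters at large. The 3 windows with a TGACAG match are printed 5′ to 3′ on the strand of the gene, with the match in capitals. PLXNA2 has 1 window, at chr1:208244335-208244634 on the minus strand. The ROBO2 window is 1 of 2, at chr3:76310630-76310929 on the plus strand, and that of SEMA6D is 1 of 3, at chr15:47718239-47718538 on the plus strand.
PLXNA2: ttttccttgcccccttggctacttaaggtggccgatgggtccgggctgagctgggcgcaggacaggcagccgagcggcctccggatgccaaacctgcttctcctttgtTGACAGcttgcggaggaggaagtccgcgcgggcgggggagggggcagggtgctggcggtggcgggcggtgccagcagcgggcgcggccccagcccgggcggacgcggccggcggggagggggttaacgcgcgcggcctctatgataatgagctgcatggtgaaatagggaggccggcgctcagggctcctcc
ROBO2: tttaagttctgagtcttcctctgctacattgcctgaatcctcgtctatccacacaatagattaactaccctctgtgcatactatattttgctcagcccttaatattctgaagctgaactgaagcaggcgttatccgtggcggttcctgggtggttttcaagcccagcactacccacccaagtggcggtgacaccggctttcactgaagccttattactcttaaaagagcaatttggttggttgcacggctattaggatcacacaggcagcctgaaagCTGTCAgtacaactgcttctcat
SEMA6D: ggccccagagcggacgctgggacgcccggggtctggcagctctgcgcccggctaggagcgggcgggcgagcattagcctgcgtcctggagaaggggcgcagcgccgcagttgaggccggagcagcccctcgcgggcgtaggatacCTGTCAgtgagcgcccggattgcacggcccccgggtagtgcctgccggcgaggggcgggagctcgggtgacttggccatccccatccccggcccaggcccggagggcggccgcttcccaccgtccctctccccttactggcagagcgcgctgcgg
Their composition differed, with a GC content of 70.3% and 29 CpG pairs for PLXNA2, 46.7% and 7 for this ROBO2 window, and 74.7% and 33 for this SEMA6D window. The medians over all windows were 58.7% and 14 CpG pairs, and over windows of axon guidance genes 64.7% and 21. A match is a description of these letters and says nothing about binding.

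Smaller rises between day 7 and day 21 were spread over the families. EFNB2, the transmembrane ephrin-B2 that marks arterial cells, rose by 1.78 ± 0.06 and the Slit ligand gene SLIT2 by 1.54 ± 0.07. NRP2, a co-receptor for class 3 semaphorins, rose by 1.30 ± 0.10, the Eph receptor gene EPHA7 by 1.17 ± 0.12 and the netrin receptor gene DCC by 1.03 ± 0.13. Adjusted p for these 5 lay between 3.21e-07 and 4.32e-04 in limma. SLIT2 had a log2 level of 6.49 in undifferentiated cells, 6.52 to 6.58 at day 7 and 7.92 to 8.26 at day 21. EPHA7 had 6.66 in undifferentiated cells, 6.58 to 7.02 at day 7 and 7.67 to 8.07 at day 21.

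Markers of several cell types also changed between day 7 and day 21, where 18.7% of all genes rose and 17.6% fell. Of 13 measured neuron markers 6 rose and 2 fell, with a median of 0.11. The largest rises were in NCAM1 (2.31 ± 0.05), DCX (1.66 ± 0.08) and SNAP25 (1.46 ± 0.10). STMN2 (-0.62 ± 0.12) and RBFOX3 (-0.35 ± 0.05) fell, and the rest did not pass. The list's mean level was 8.09 to 8.26 at day 21, against 7.57 to 7.73 at day 7. Of 12 neural progenitor markers 4 rose and 4 fell, with PAX6 at 4.32 ± 0.11, OTX2 at -1.26 ± 0.18 and PROM1 at -1.11 ± 0.07, and mean levels were 8.73 to 8.95 at day 21 and 8.51 to 8.64 at day 7. In mesenchyme 4 of 10 rose and 0 fell, with PDGFRA at 2.67 ± 0.09, LUM at 1.18 ± 0.14 and POSTN at 1.13 ± 0.13, and mean levels of 7.21 to 7.28 at day 21 and 6.65 to 6.82 at day 7. Neural crest markers were split, with 2 of 8 higher and 2 lower, TFAP2A at -2.10 ± 0.10, PAX3 at 0.92 ± 0.12 and NGFR at 0.35 ± 0.08, and mean levels of 7.72 to 7.89 at day 21 and 7.88 to 8.08 at day 7. Of 10 endothelial markers 9 were dim on all 9 arrays, 1 rose and 2 fell, with FLT1 at -0.99 ± 0.10, EMCN at 0.85 ± 0.08 and PECAM1 at -0.24 ± 0.05, and mean levels of 6.56 to 6.68 at day 21 and 6.59 to 6.78 at day 7. Also dim on all arrays were 4 of 13 neuron, 5 of 10 mesenchyme, 4 of 8 neural crest, 4 of 6 glial and 3 of 6 endoderm markers. Of the neural progenitor and pluripotency markers 0 were. Among 6 glial markers 1 rose and 1 fell, AQP4 (0.49 ± 0.10) and MBP (-0.26 ± 0.05), with mean levels of 6.99 to 7.06 at day 21 and 6.98 to 7.12 at day 7, and among 6 endoderm markers GATA6 rose (0.80 ± 0.07) and 0 fell, with mean levels of 7.29 to 7.49 at day 21 and 7.32 to 7.52 at day 7. Of 14 pluripotency markers 13 fell and 1 rose, with PRDM14 at -2.58 ± 0.09, L1TD1 at -2.50 ± 0.11 and CRIPTO at -2.27 ± 0.15. The part of cell type shares in the guidance gene changes was not tested, and in these bulk samples more cells of a type and more RNA per cell cannot be told apart.

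Of 13 Eph receptor genes 3 were higher and 2 lower at day 21 than at day 7. These counts are not far from the shares of all genes, of which 18.7% rose and 17.6% fell. EPHB3 (0.89 ± 0.07) and EPHA4 (0.30 ± 0.07) rose beside EPHA7, while EPHA1 fell. The kinase-dead receptor gene EPHB6 (-0.24 ± 0.07), dim on all arrays, fell too. EPHA1, an Eph receptor of epithelia, was the only one of the 67 genes to fall at least 2-fold between these days, by 1.04 ± 0.07 on the log2 scale (2.06-fold, adjusted p = 1.46e-05 in limma). Its log2 level was 9.06 in undifferentiated cells, 8.63 to 8.94 at day 7 and 7.56 to 7.93 at day 21. EPHA5, EPHA6, EPHA8 and EPHB1 were dim throughout and did not pass the test.

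Among 8 ephrin genes EFNB2 rose, and EFNA3 (-0.71 ± 0.14), EFNA4 (-0.48 ± 0.10) and EFNB1 (-0.48 ± 0.06) fell between day 7 and day 21. Of all genes 18.7% rose and 17.6% fell. EFNB1 and EFNB2, both transmembrane ligands of EphB receptors, thus moved in opposite directions. EFNB1 levels were 8.53 to 8.59 at day 21, against 8.92 to 9.17 at day 7. EFNB2 levels were 10.31 to 10.39 at day 21, against 8.43 to 8.68 at day 7. EFNA5 did not pass between the days (0.11 ± 0.05, adjusted p = 0.108 in limma).

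Semaphorin classes differed in the direction of their calls between day 7 and day 21. Of 7 class 3 genes, which code for secreted cues, 4 rose and 0 fell: SEMA3C, SEMA3E (0.85 ± 0.14), SEMA3A (0.79 ± 0.07), the founding repellent semaphorin, and SEMA3D (0.61 ± 0.09), which stayed dim on all arrays. Of 5 class 4 genes, which code for transmembrane semaphorins, 3 fell and 0 rose: SEMA4A (-0.75 ± 0.12), SEMA4D (-0.30 ± 0.05) and SEMA4B (-0.22 ± 0.07). In classes 5 to 7, SEMA6D rose, and SEMA7A (-0.62 ± 0.05), SEMA6A (-0.33 ± 0.07) and SEMA6B (-0.20 ± 0.05) fell among 7 genes. Among all genes 18.7% rose and 17.6% fell between these days. With 5 to 7 genes in a class, the difference between classes was not tested.

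Of 9 plexin genes, PLXNA2, PLXNB2 (0.62 ± 0.08) and PLXNA3 (0.55 ± 0.05) rose and PLXNC1 (-0.43 ± 0.07) fell at day 21. The shares of all genes were 18.7% higher and 17.6% lower. NRP2 rose, but its relative NRP1 did not pass, at 0.13 ± 0.08. PLXND1, the receptor that SEMA3E binds without a neuropilin, had levels of 8.36 to 8.48 at day 21 and 8.25 to 8.48 at day 7, with a difference of 0.04 ± 0.06. SEMA4D and its receptor PLXNB1 also parted, since PLXNB1 differed by 0.01 ± 0.05 and did not pass.

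In the Slit and Robo system SLIT2 and ROBO2 rose far more than SLIT1 (0.22 ± 0.07) and ROBO1 (0.17 ± 0.05), and ROBO3 (-0.29 ± 0.06), dim on all arrays, fell. SLIT3 and ROBO4, the endothelial Robo, did not pass. Among netrins NTN1, the ligand of DCC, lay between 8.44 and 8.54 on all 9 arrays and differed by 0.02 ± 0.05 between the days. DCC had 6.46 in undifferentiated cells. At day 7 it had 6.46 with ethanol and FA, 6.42 with ethanol, 6.41 with FA and 6.31 untreated. At day 21 it had 7.42 with ethanol and FA, 7.95 with ethanol, 7.18 with FA and 7.16 untreated, so that DCC rose at day 21 beside a flat ligand gene. UNC5A fell (-0.29 ± 0.05), UNC5B and UNC5D did not pass, and the dim NTN4 rose by 0.15 ± 0.05. Over all genes 18.7% rose and 17.6% fell between the days.

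**Figure D3:**
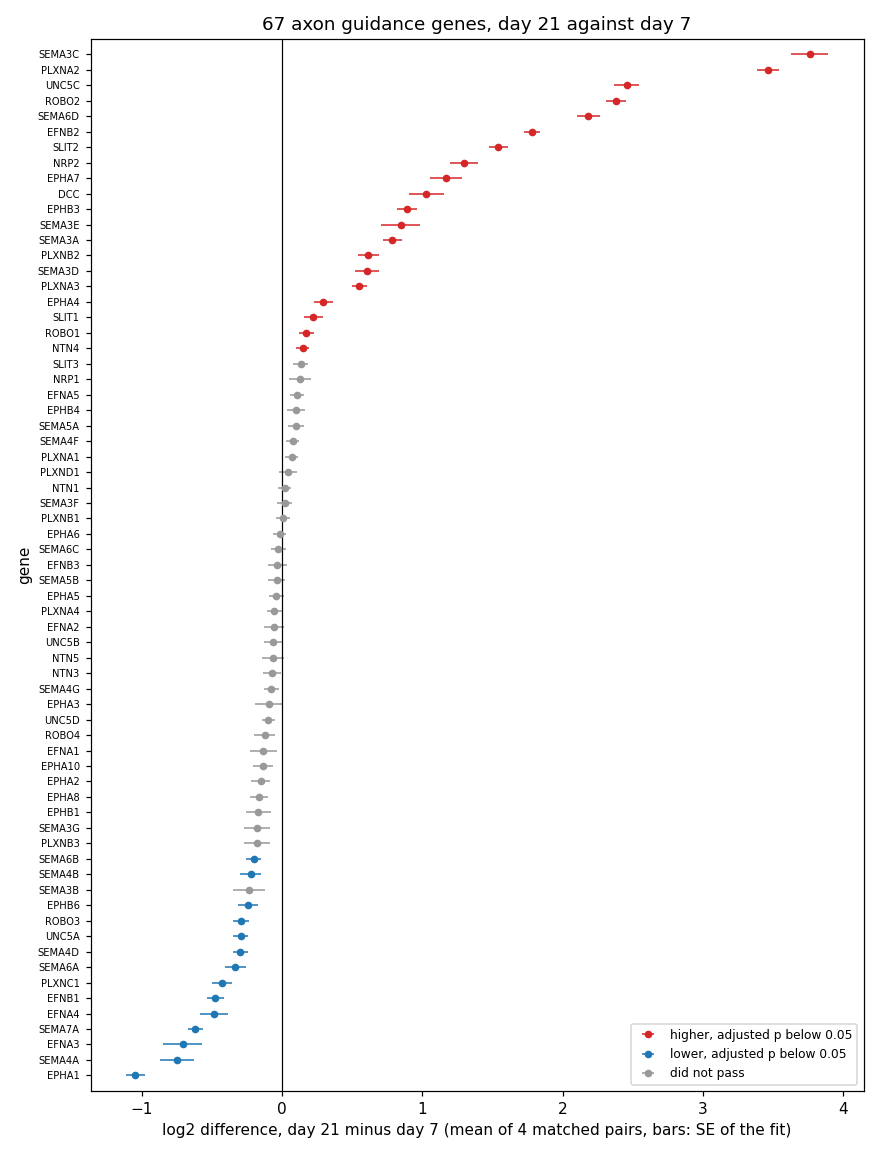
The log2 difference of day 21 minus day 7 (horizontal axis) is drawn for each of the 67 genes with the SE of the fit as bars, red for 20 that rose, blue for 14 that fell and grey for the rest. A tail of 10 genes beyond 1 stands to the right, with EPHA1 alone beyond -1 on the left.

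In some of these genes the arrays of day 7 and day 21, the same arrays that gave the calls, did not overlap. All 4 day 21 arrays lay above all 4 day 7 arrays in 20 of 67 genes (29.9%), where 18.4% of all genes did so. They lay below them in 12 (17.9%), which is near the 18.1% of all genes that did so. Weak calls depended on single arrays or settings: EPHA4, EPHB6, NTN4, ROBO1, SEMA4B, SEMA6B and SLIT1, all between -0.24 and 0.30, lost their calls under at least 1 alternative, and the other 27 kept theirs under all those that included them (the filters on dim genes left out 11 of the 34).

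Genes around these ligands and receptors also moved in both directions. Of 65 measured co-receptors, partners and intracellular effectors, 23 rose and 18 fell between day 7 and day 21, with a median of 0.03. Among all genes 18.7% rose and 17.6% fell. The largest were DPYSL5 (2.48 ± 0.09) and DPYSL3 (-1.82 ± 0.07), 2 genes of the collapsin response mediator family that acts in semaphorin signalling, and FLRT3 (1.60 ± 0.08), whose product binds UNC5 receptors. From undifferentiated cells 4 rose and 5 fell by day 7, where 3.93% and 7.74% of all genes did so. By day 21 12 rose and 12 fell, where 11.8% and 14.4% of all genes did so. With ethanol and with FA, 0 of the 65 passed, against 0.293% and 0% of all genes.

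In the first week EFNA3, NRP2, EPHA3, ROBO2 and PLXNA3 rose and EFNB2, SEMA7A and SEMA3A fell, relative to undifferentiated cells. These effects compare the untreated day 7 level of the fit with the single undifferentiated array. The 8 calls are 11.9% of the 67 genes, against 11.7% of all genes, 5 higher (3.93% of all genes) and 3 lower (7.74% of all genes). With each array centred on its median there were 4 higher and 6 lower. The share of axon guidance genes that changed by day 7 was thus near that of all genes.

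EFNA3, a lipid-anchored ephrin, had a log2 level of 9.04 in undifferentiated cells. It reached 10.05 with ethanol and FA, 9.47 with ethanol, 10.16 with FA and 10.32 untreated at day 7. At day 21 it was at 9.18 with ethanol and FA, 9.35 with ethanol, 9.39 with FA and 9.25 untreated. Its rise by day 7 (1.04 ± 0.24, 2.06-fold, adjusted p = 0.0294 in limma) was followed by the fall given above, and all day 7 arrays lay above the undifferentiated and all day 21 arrays.

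NRP2 had 7.19 in undifferentiated cells, 7.77 to 8.21 at day 7 and 9.12 to 9.37 at day 21, a rise in both steps (0.75 ± 0.17 by day 7, adjusted p = 0.0278 in limma). EPHA3 had 7.92 in undifferentiated cells, 8.30 to 8.71 at day 7 and 8.28 to 8.61 at day 21, a rise by day 7 (0.69 ± 0.17, adjusted p = 0.0352 in limma) without a further call. ROBO2 (0.60 ± 0.12) and PLXNA3 (0.49 ± 0.09) were the other increases.

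EFNB2 and SEMA3A dipped at day 7 and were above the undifferentiated array at day 21. EFNB2 had 9.24 in undifferentiated cells and fell by 0.65 ± 0.10 by day 7 (adjusted p = 0.00994 in limma). SEMA3A had 9.35 in undifferentiated cells, 8.66 to 8.90 at day 7 and 9.48 to 9.78 at day 21, with a fall of 0.45 ± 0.12 by day 7 (adjusted p = 0.0448 in limma). SEMA7A fell in both steps, by 0.51 ± 0.09 by day 7 (adjusted p = 0.0146 in limma), with 9.15 in undifferentiated cells, 8.61 to 8.76 at day 7 and 7.90 to 8.14 at day 21. No call of this step held under all alternatives: 0 remained without the untreated day 7 array, 2 without the day 7 FA array, 4 when the day 21 array of ethanol plus FA was left out, and 5 without the untreated day 21 array. Calls over all genes fell as well in these fits, from 2149 to 23, 723, 1105 and 1375 in the same order.

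From undifferentiated cells to day 21 26 of the 67 genes changed, or 38.8%, against 26.2% of all genes. There were 18 that rose and 8 that fell, 26.9% and 11.9% of the 67, where 11.8% and 14.4% of all genes did so. At least 2-fold apart were 12 that rose and 2 that fell, EPHA1 (-1.43 ± 0.12) and SEMA7A (-1.13 ± 0.09), against 3.15% and 1.5% of all genes. This comparison shares its day 21 arrays with the one above. Among genes that rose in both, the values here were 2.05 ± 0.17 for NRP2, 2.98 ± 0.12 for ROBO2, 1.37 ± 0.24 for SEMA3E and 1.04 ± 0.09 for PLXNA3. EFNA5 (0.33 ± 0.08), EPHA3 (0.59 ± 0.17), the Eph receptor gene EPHA2 (-0.51 ± 0.12) and UNC5D (-0.31 ± 0.08) passed here and not between day 7 and day 21, whereas EFNA3 (0.34 ± 0.24) and SEMA3A (0.33 ± 0.12) did not pass here. EFNA5, EPHA2, EPHA3, ROBO1, SEMA4A, SEMA4D and UNC5D lost this call when the untreated array of day 21 was left out (adjusted p from 0.0709 to 0.135 in limma). EFNA5 also lost it without the day 21 ethanol array. EPHA3, SEMA4D and UNC5D also lost it without the untreated or the FA array of day 7 or the FA array of day 21, and EPHA3 and UNC5D without the ethanol and FA array of day 21. UNC5D further lost it without the day 21 ethanol array. PLXNB2 (0.49 ± 0.13) lost its call without the untreated or FA array of day 7 or the ethanol or FA array of day 21 (adjusted p from 0.0507 to 0.0576).

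Ethanol lowered PLXNC1, which codes for the receptor of the lipid-anchored semaphorin SEMA7A, and no other of the 67 genes passed. With ethanol PLXNC1 had log2 levels of 8.17 at day 7, 8.37 at day 7 with FA, 7.92 at day 21 and 7.82 at day 21 with FA. Without ethanol the matched arrays had 8.90, 8.71, 8.37 and 8.33, and the undifferentiated array 8.40. The ethanol array was the lower of each pair, by 0.73, 0.34, 0.45 and 0.50 in the same order. The effect was -0.51 ± 0.07 (1.42-fold lower, lower in 4 of 4 pairs, 95% interval -0.67 to -0.35, adjusted p = 0.0357 in limma). Among all genes 0.293% passed with ethanol, of which 0.0652% of all genes were lower and 0.228% higher. Of the 13 neuron markers NCAM1 rose with ethanol (0.47 ± 0.05, adjusted p = 0.0224 in limma), and no gene of the other marker lists passed. The part of such shifts in the PLXNC1 effect was not tested.

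The call depended on which arrays were included. It was lost, with the effect between -0.54 and -0.46, when either day 7 array without ethanol or any of the 4 day 21 arrays was left out (adjusted p from 0.121 to 0.203 in limma). In those fits 3 to 5 of all genes passed with ethanol, against 54 with all arrays, so the loss was not particular to PLXNC1. Over all the alternatives of this result the effect stayed between -0.56 and -0.44 and adjusted p ranged from 0.0254 to 0.203. SEMA7A had log2 levels with ethanol of 8.76 at day 7, 8.62 at day 7 with FA, 8.14 at day 21 and 8.13 at day 21 with FA. Without ethanol they were 8.65, 8.61, 8.01 and 7.90, and its effect of 0.12 ± 0.05 did not pass (adjusted p = 0.381 in limma).

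**Figure D4:**
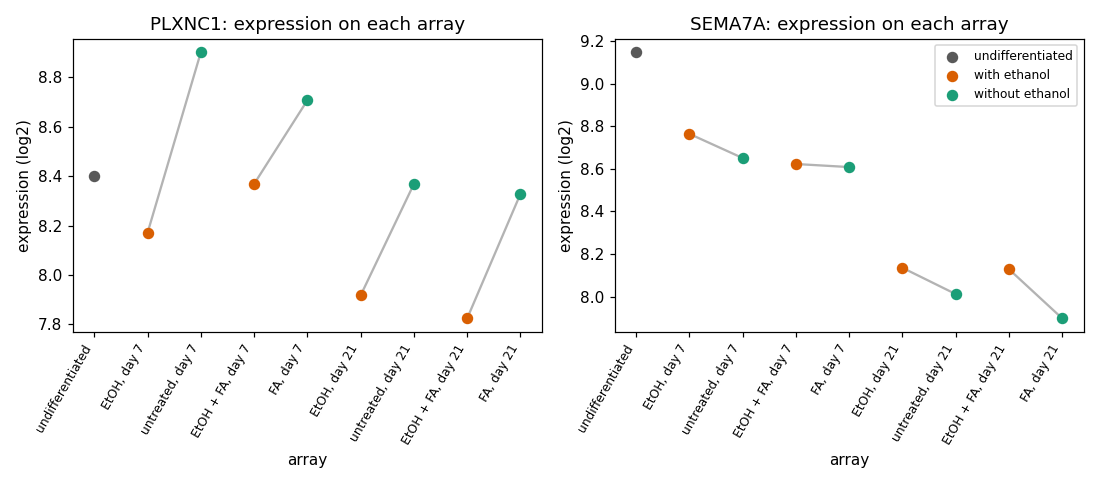
Log2 levels (vertical axis) of PLXNC1 and SEMA7A are shown on each of the 9 arrays, with lines joining an ethanol array to its match without ethanol. Each PLXNC1 line climbs from the ethanol point, by 0.34 to 0.73, while SEMA7A points step down by day.

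The next largest ethanol effects missed the threshold and are given as values. UNC5C differed by 0.32 ± 0.09 (adjusted p = 0.199 in limma, higher in 3 of 4 pairs), SEMA6D by 0.31 ± 0.08 (adjusted p = 0.180, 4 of 4) and DCC by 0.30 ± 0.13 (adjusted p = 0.356, 4 of 4). The DCC value is carried by the day 21 pair without FA, at 0.79, against 0.24, 0.12 and 0.05 in the others. On the lower side SEMA3E differed by -0.28 ± 0.14 (adjusted p = 0.425) and EFNA3 by -0.27 ± 0.14 (adjusted p = 0.461), and the EFNA3 value came mostly from the day 7 pair without FA at -0.85. Of the 67 genes 11 were higher and 6 lower with ethanol in all 4 pairs, 16.4% and 8.96%, where 15.3% and 8.39% of all genes were. At an unadjusted p below 0.05 there were 9, or 13.4%, against 13.5% of all genes. Ethanol effects of the 67 genes ran from -0.51 to 0.32, and the outermost 95% bounds were -0.67 and 0.59, so a 2-fold mean effect lies outside every interval.

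**Figure D5:**
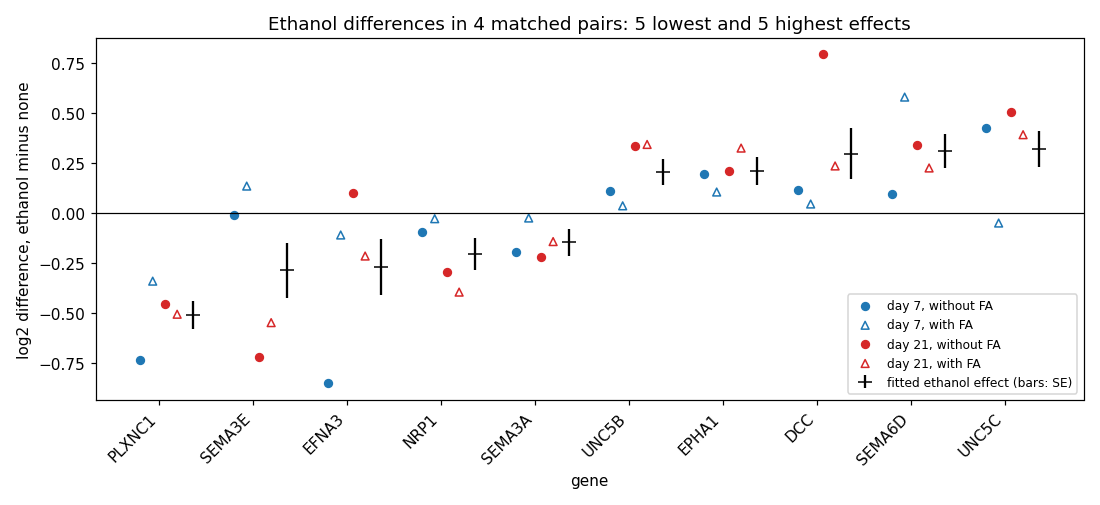
Log2 differences of ethanol minus none (vertical axis) are plotted for the 5 lowest and 5 highest ethanol effects, with a symbol per matched pair and the fitted effect with its SE in black. The 4 PLXNC1 points lie between -0.73 and -0.34, while in SEMA3E, EFNA3 and UNC5C the pairs disagree in sign.

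Whether ethanol acted differently at day 7 and day 21 was tested with an interaction term, and 0 of the 67 genes passed in limma. At an unadjusted p below 0.05 there were 10 (14.9%), against 5.59% of all genes. SEMA3C and SEMA3E, both class 3 semaphorins that rose by day 21, had negative ethanol differences in both day 21 pairs. SEMA3C differed by -0.57 without FA and -0.32 with FA at day 21, and by 0.35 and 0.09 at day 7 (interaction -0.66 ± 0.14, adjusted p = 0.389). SEMA3E had 7.00 at day 21 with ethanol and 6.83 with ethanol and FA, against 7.71 untreated and 7.38 with FA. At day 7 SEMA3E had 6.42 with ethanol and 6.42 with ethanol and FA, against 6.43 untreated and 6.28 with FA, and its interaction was -0.70 ± 0.13 (adjusted p = 0.326). SEMA4A ran the other way, with 7.84 at day 7 with ethanol and 7.81 with ethanol and FA, against 8.18 untreated and 8.25 with FA. At day 21 SEMA4A had 7.40 with ethanol and 7.37 with ethanol and FA, against 7.21 untreated and 7.12 with FA, and its interaction was 0.61 ± 0.10 (adjusted p = 0.312). Only with the ethanol and FA array of day 7 left out did any of the 67 genes pass this interaction test. They were SEMA3C, SEMA3E, SEMA4A, EFNA3, EFNA4 and EPHB1, with interactions of -0.75, -0.59, 0.60, 0.75, 0.58 and 0.49. Many genes outside the 67 also began to pass in that fit. Its day 7 ethanol level rests on 1 array, the one with the lowest mean correlation with others of its day (0.992).

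FA changed 0 of the 67 genes in limma, as it changed 0 of all 18417, and at an unadjusted p below 0.05 there was 1 (SEMA6C), or 1.49%, against 1.17% of all genes. Effects ran from -0.20 (UNC5C, ± 0.09) to 0.13 (NTN5, ± 0.08), and the outermost 95% bounds were -0.48 and 0.42. In all 4 pairs 2 of the 67 genes were higher and 7 lower with FA, 2.99% and 10.4%, where 2.2% and 4.29% of all genes were. SEMA3E (-0.16 ± 0.14) and SEMA6A (-0.11 ± 0.07) followed on the lower side, and SEMA6C (0.12 ± 0.05) and EFNA4 (0.11 ± 0.10) on the higher. Over all the alternatives these uncalled values lay between -0.30 and -0.12 for UNC5C, -0.29 and -0.03 for SEMA3E, -0.17 and -0.06 for SEMA6A, and 0.08 and 0.20 for NTN5. On the undifferentiated array SEMA3E had 6.09, SEMA6A 11.69, SEMA6C 7.84, NTN5 7.34 and EFNA4 9.50. With FA SEMA6C had 7.97 at day 21 and 7.97 at day 21 with ethanol, against 7.78 and 7.78 without FA. At day 7 SEMA6C had 7.91 with FA and 7.94 with ethanol and FA, against 7.86 untreated and 7.89 with ethanol. NTN5, dim on all arrays, had 7.52 with FA and 7.36 with ethanol and FA at day 7, against 7.27 untreated and 7.50 with ethanol. At day 21 NTN5 had 7.36 with FA and 7.54 with ethanol and FA, against 7.27 untreated and 7.22 with ethanol. SEMA6A, a bright transmembrane semaphorin, had 11.92 with FA and 11.69 with ethanol and FA at day 7, against 11.98 untreated and 11.83 with ethanol. At day 21 SEMA6A had 11.38 with FA and 11.54 with ethanol and FA, against 11.54 untreated and 11.63 with ethanol. EFNA4 had 9.64 with FA and 9.75 with ethanol and FA at day 7, against 9.61 untreated and 9.37 with ethanol, so its value came from 1 pair. At day 21 EFNA4 had 8.95 with FA and 9.28 with ethanol and FA, against 8.94 untreated and 9.26 with ethanol. Interactions of FA with ethanol and with day passed for 0 genes each in limma, with 0 and 6 of the 67 at an unadjusted p below 0.05, against 1.51% and 11.4% of all genes.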

How the data were processed

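The 9 arrays measured total RNA of NCCIT cells. Per the submitters' processing notes the deposited log2 values were made by the authors with RMA in Affymetrix Expression Console 1.3.1. The log base was inferred from the values (2.49 to 14.3). RMA normalizes probe values by quantiles before summarising them, which can hide a global shift, and it compresses differences of dim genes. Medians of the arrays ran from 7.67 to 7.76. No source used here names a genome build. The platform annotation gave 19460 of 33297 transcript clusters a single symbol, 1754 several and 12083 none, which made 18417 genes.

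An additive model (ethanol, FA, day and a term for the undifferentiated array) was fitted per gene with limma 3.58.1 (lmFit, eBayes) in R 4.3.3, with 4 residual degrees of freedom. With no replicates, the residual of this model served as the error, so it includes interactions. Interactions were added singly. P-values were Benjamini-Hochberg adjusted over all 18417 genes (threshold 0.05), without a filter on dim genes, so that no gene entered through the group where it was high. The fit was tested on simulated data.

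Values on all arrays are given for genes at least 4-fold apart between the days, for those that passed ethanol, FA or an interaction, for the 3 largest effects in each direction of ethanol, FA and the first week, and for PLXNC1, SEMA7A, DCC and NTN1. Where a range replaces single arrays it spans the 4 arrays of a day (all 9 arrays for NTN1). The genes, lists and motifs were chosen with earlier results of these data known. Alternatives were 2 filters on dim genes, median centring, a second quantile normalization, the mean of all clusters of a gene, an intensity trend in the variance prior, and leaving out each array. The number of arrays limits the precision.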

Additional observations from a re-analysis of the deposited data

How the results depend on the processing

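Counts of axon guidance genes that passed were within 1.5 times the reported ones under both filters, median centring, a second quantile normalization, the mean of clusters and the variance trend. Leaving out 1 array at a time gave 27 to 39 genes between day 7 and day 21, 20 to 32 from undifferentiated cells to day 21, and 0 to 12 from undifferentiated cells to day 7. It gave 0 to 1 with ethanol, 0 to 6 for ethanol by day, and 0 for FA and the other interactions. Of the 34, 26 and 8 genes called in the first 3 comparisons, 27, 18 and 0 kept their call under every alternative that included them, and the filters on dim genes left out 11, 7 and 0 of them. The cause of the losses was not tested. The FA effect of EFNA4, not called, reversed to -0.0073 when the ethanol array of day 7 was left out and reached 0.184 at most. Centring moved the median of all genes by 0.05 between the days and by -0.08 in the first week. No paired analysis was possible because the labels carry no replicate numbers to use as a block, with 1 array for each condition. The model matched arrays by condition instead.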

Other observations

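Neighbouring guidance genes did not always move together, in the gene order of RefSeq (GRCh38.p14). SEMA3E, SEMA3A and SEMA3D on chromosome 7 have 0 protein-coding genes between them, SEMA3C lies 3 such genes away from SEMA3E, and these 4 are the class 3 genes that rose between day 7 and day 21, by 0.85, 0.79, 0.61 and 3.76. ROBO2 and ROBO1, adjacent on chromosome 3, rose by 2.38 and 0.17. EFNA3 and EFNA1 are adjacent on chromosome 1, where EFNA3 fell by 0.71 and EFNA1, dim on all arrays, differed by -0.13 and did not pass. EFNA4, 1 protein-coding gene away from EFNA3, differed by -0.48 and passed. ROBO3 and ROBO4, adjacent on chromosome 11, differed by -0.29 and -0.12, and only ROBO3 passed in limma.

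In 3 genes a second, dimmer transcript cluster was left out. For NRP2 it gave a log2 difference of 1.58 between day 21 and day 7 (adjusted p = 2.63e-05 in limma), against 1.30 for the cluster used. For SEMA4D it gave -0.12 (adjusted p = 0.191), against -0.30 for the cluster used, and for EPHA10 neither passed. With the mean of both SEMA4D clusters the fall from undifferentiated cells to day 21 missed the threshold (-0.23, adjusted p = 0.120).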
